A study of Mus musculus with 6 samples.

Results

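Kinesins are motor proteins that step along microtubules or take them apart at their ends. They were followed here as 38 listed genes, all of the Kif and Kifc series except Kifap3, a non-motor subunit that joins a pair of kinesins to cargo. Every probe set that the array annotation assigns to 1 of these genes alone was taken, which gave 100 probe sets among the 45037 that are not controls. All 38 genes had at least 1, among 18161 genes with such a probe set. For values per gene, the probe set with the highest mean over all 6 arrays stood for the gene and is called its brightest. RNA came from freshly dissected testes of adult mice of a C57BL/6 x CBA hybrid background. The groups were wild type (3 arrays) and transgenic for DREAM, described as a constitutively active mutant (3 arrays), and the submitters call the samples independent biological replicates. The promoter and the cell types that drive the transgene are not given in the sources used here.

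In dividing cells, spindle kinesins separate poles, move and align chromosomes, depolymerize kinetochore microtubules and complete cytokinesis, and in the testis they serve the divisions of spermatogonia and both meiotic divisions of spermatocytes. Transport kinesins carry vesicles, organelles and mRNA, and heterotrimeric kinesin-2 carries building material along the axoneme while the sperm tail grows. The genes were split by textbook function into 13 mitotic or meiotic, 17 transport, 5 cilium, centriole or axoneme, and 3 other genes. DREAM, the product of Kcnip3, is a calcium sensor that represses transcription by binding DNA with the core letters GTCA. It shares only its name with the DREAM complex of pocket proteins, E2F factors and MuvB, which represses mitotic genes, spindle kinesins among them, through the cell cycle homology element.

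The promoters of the kinesins were searched for short motifs. Because the cell cycle homology element is already known from spindle kinesins, its share among the mitotic genes is a description and no test. Promoter windows of 300 bases, 250 before and 50 after each RefSeq start (GRCm38.p6), were found for 31 of the 38 genes. The core letters of the cell cycle homology element, TTTGAA, were searched on both strands, a motif chosen after the expression values were seen. They occurred in 9 of the 12 mitotic or meiotic genes with a window (75.0%), in 1 of 11 transport genes (9.09%), in 1 of 5 cilium, centriole or axoneme genes (20.0%) and in 1 of 3 other genes (33.3%). Over all genes with a window the share was 20.2%, and over all 32851 windows it was 17.9%. In 7 of the 9 mitotic genes the letters lay between 80 bases before the start and 30 bases after it. The share of all genes with the letters in that stretch was not counted. These stretches of 110 bases are shown 5′ to 3′ on the gene's strand, with each match to TTTGAA or its reverse complement in capitals. The same stretches of Kif21a and Kifap3, transport members described below with no such letters there, stand under them. The contrast between the stretches shown thus follows from their choice. Not shown are Kif2c, Kif14, the transport gene Kif1a, and Kif27 and Kif26b of the smaller classes, which also hold the letters. The mitotic genes Kif2a, Kif2b and Kif18a, which do not hold them, are not shown either.

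Kif4 (chrX:100625985-100626094, plus strand): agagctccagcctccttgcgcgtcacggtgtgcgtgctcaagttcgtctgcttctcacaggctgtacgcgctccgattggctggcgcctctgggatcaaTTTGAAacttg
Kif11 (chr19:37376302-37376411, plus strand): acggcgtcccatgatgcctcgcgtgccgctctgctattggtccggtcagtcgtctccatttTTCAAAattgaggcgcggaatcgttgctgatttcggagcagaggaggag
Kif15 (chr9:122951001-122951110, plus strand): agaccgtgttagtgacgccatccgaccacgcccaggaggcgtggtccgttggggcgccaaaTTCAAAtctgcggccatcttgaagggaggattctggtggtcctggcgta
Kif20b (chr19:34922278-34922387, plus strand): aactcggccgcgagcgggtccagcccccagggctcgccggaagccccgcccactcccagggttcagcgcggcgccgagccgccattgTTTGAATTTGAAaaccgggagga
Kif22 (chr7:127042391-127042500, minus strand): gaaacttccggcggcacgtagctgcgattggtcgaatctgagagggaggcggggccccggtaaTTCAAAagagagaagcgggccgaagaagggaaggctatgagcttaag
Kif23 (chr9:61946770-61946879, minus strand): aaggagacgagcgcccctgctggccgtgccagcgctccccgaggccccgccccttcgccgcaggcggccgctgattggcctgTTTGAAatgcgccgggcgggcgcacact
Kifc1 (chr17:33890604-33890713, minus strand): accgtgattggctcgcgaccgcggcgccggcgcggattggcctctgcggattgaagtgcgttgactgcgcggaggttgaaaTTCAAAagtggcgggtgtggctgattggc
Kif21a (chr15:91049922-91050031, minus strand): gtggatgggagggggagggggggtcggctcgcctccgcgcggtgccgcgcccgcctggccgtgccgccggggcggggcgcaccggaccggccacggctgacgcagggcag
Kifap3 (chr1:163779503-163779612, plus strand): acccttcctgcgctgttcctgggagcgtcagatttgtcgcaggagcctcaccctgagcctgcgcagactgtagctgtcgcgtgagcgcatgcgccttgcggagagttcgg

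The first match began 19 bases before the start in Kif11 and Kif15 (position -19) and 17 before it in Kif22 (position -17). It began at position 2 in Kifc1, 3 in Kif23, 8 in Kif20b and 20 in Kif4, counted from 1 at the start, and Kif20b held 2 matches side by side. The letters CCAAT, the box bound by NF-Y, occurred on either strand in 7 of 12 mitotic genes (58.3%) and 4 of 11 transport genes (36.4%), against 41.1% of all genes. GTCA, which is only 4 letters long, was common: it occurred in 27 of 31 kinesin windows (87.1%) and in 87.0% of all genes. Matches describe letters, not bound sites, and no binding was measured here. The log2 differences between the groups, described next, ran from -0.31 to 0.18 in the 9 mitotic genes with TTTGAA (median -0.01) and from 0.02 to 0.11 in the 3 without it (median 0.06). Kif20a, which had no window and the highest difference of the class (0.30), is in neither range. A link between the letters and the differences was not tested.

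**Figure D1:**
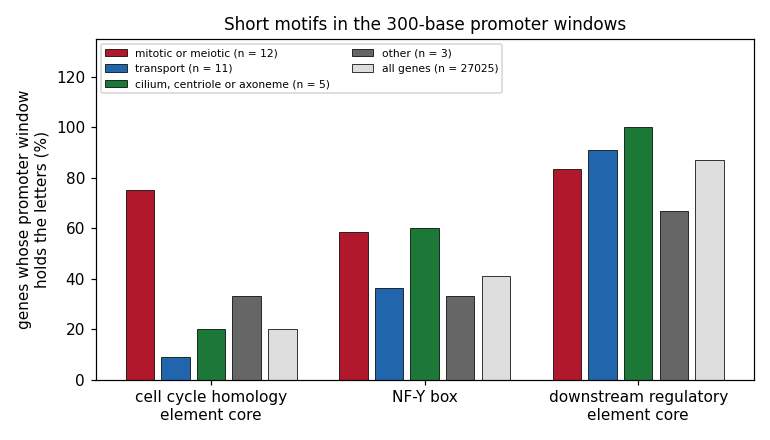
Share of genes (bars, percent, y axis from 0) whose 300-base promoter window holds each of 3 short motifs on either strand, by class of kinesin and for all genes, with the number of genes in the legend. The core of the cell cycle homology element was in 75.0% of the mitotic or meiotic genes and in 20.2% of all genes, while the core of the downstream regulatory element was in 87.0% of all genes.

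The arrays were checked before the members were read. The deposited values are log2 intensities, with medians from 5.99 to 6.08 per array. Wild type replicate 2 stood apart on the first principal component (42.2, the other 5 arrays from -23.3 to 5.3), so the main counts of kinesins are also given without it. The Gapdh 3′ minus 5′ control difference, which grows as RNA is degraded, was 0.06 to 0.16 in wild type and 0.21 to 0.33 in transgenic arrays, and that of beta-actin overlapped between the groups (0.41 to 0.50 and 0.47 to 0.53). Testis identity was clear: Prm1 and Tnp1, which package sperm DNA, read 14.10 and 13.89 in wild type, and Sycp3, of the meiotic chromosome axis, read 10.37. Kcnip3 itself differed by 0.06 (SE 0.10, limma adjusted p = 0.974) with its brighter probe set and by 0.14 (SE 0.10, adjusted p = 0.909) with its dimmer one. The sources used here do not say whether either probe set reads the transgene. Probe intensity depends on probe sequence, so levels are compared between groups for 1 probe set and never between genes. A low reading does not show that a transcript is absent.

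The groups were compared to see whether kinesin transcripts differ between transgenic and wild-type testis. No kinesin passed the test: 0 of 100 member probe sets had an adjusted p under 0.05 (limma, Benjamini-Hochberg over 45037 probe sets), where 0.444% of all probe sets did. The smallest adjusted p was 0.441, for Kif20a. At an unadjusted p under 0.05 there were 8 of 100, 3 higher and 5 lower in transgenic testis, against 6.69% of all probe sets (3.75% higher and 2.94% lower). The groups did not overlap in 10 of 100, against 11.3%. Both shares lie near the background. Without wild type replicate 2, 0 passed (0.953% of all probe sets), 12 had an unadjusted p under 0.05 (11.7%) and 29 had groups that did not overlap (26.5%). With estimated array weights, which did not reach their convergence tolerance, 11 of 100 passed, as did 9.24% of all probe sets.

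By gene, with the brightest probe set of each, 0 of 38 passed (0.617% of all genes), 4 had an unadjusted p under 0.05 (7.49% of all genes) and 5 had groups that did not overlap (12.5%). Without wild type replicate 2 these counts were 0 (1.25% of all genes), 5 (13.1%) and 12 (28.7%), and by class the 5 genes were 2 mitotic or meiotic and 3 transport. The difference, transgenic minus wild type, had a median of 0.01 over the 38 genes and 0.02 over all genes, and ran from -0.32 (Kif21a) to 0.30 (Kif20a). Its unadjusted 95% interval lay within -0.5 and 0.5, a 1.41-fold change either way, in 35 of the 38 genes, against 87.0% of all genes (34 and 86.4% without wild type replicate 2), and within -1 and 1 in all 38. The 3 genes whose interval reached past 0.5 on either side were Kif20a, Kif23 and Kif21a. The median SE was 0.10, for the kinesins as for all genes (0.11). In bulk tissue, fewer cells of a type and less RNA per cell cannot be told apart, which holds for every difference below.

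**Figure D2:**
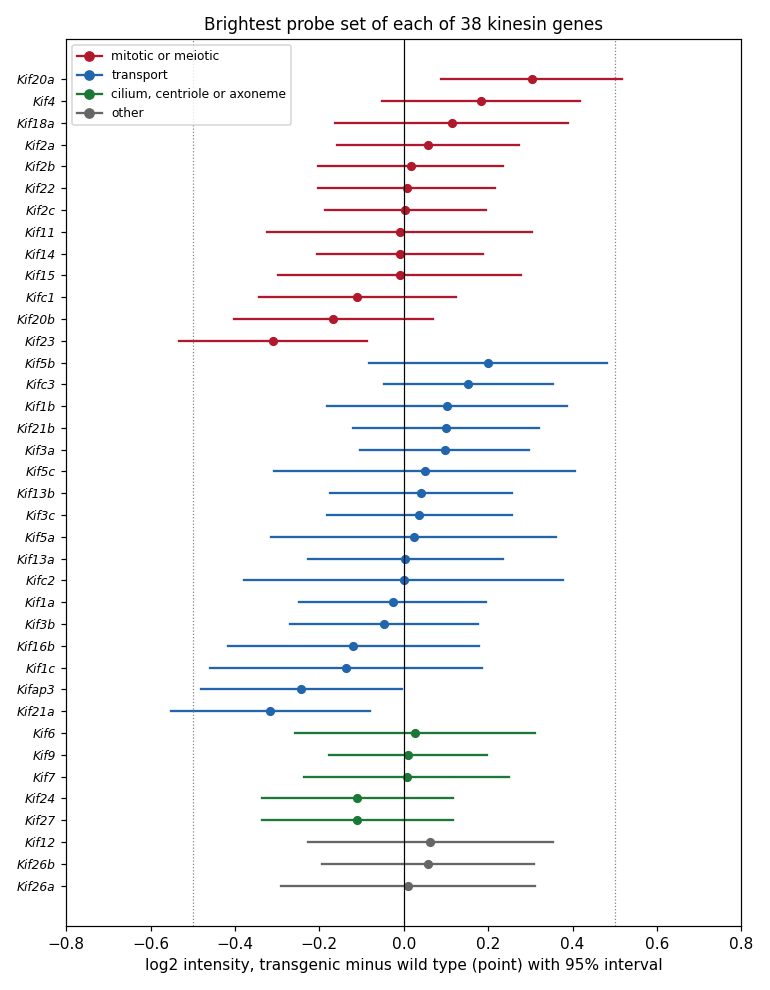
Difference in log2 intensity, transgenic minus wild type, for the brightest probe set of each of the 38 kinesin genes (points, n = 3 arrays per group), with unadjusted 95% intervals from limma (lines) and dotted lines at -0.5 and 0.5. Within each class both signs or values near 0 occur, 4 intervals leave out 0, and none of the genes passed after adjustment.

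Among the mitotic or meiotic kinesins, 0 of 13 genes passed and 2 had an unadjusted p under 0.05, in opposite directions (limma; 7.49% of all genes). The median difference was 0.0033, with 7 genes above 0 and 6 below. The 2 genes that stood furthest out were Kif20a and Kif23. Kif20a, a motor that brings Aurora B and its partners to the midzone (chromosome 18), read 8.94, 9.08 and 9.03 in the wild-type arrays and 9.41, 9.35 and 9.20 in the transgenic arrays. All 3 transgenic arrays lay above all 3 wild-type arrays. The means were 9.02 ± 0.07 and 9.32 ± 0.11 (SD, n = 3), so the transgenic mean was higher by 0.30 (SE 0.10, limma adjusted p = 0.441), with a 95% interval from 0.09 to 0.52. Kif20a has this probe set alone.

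Kif23, the kinesin component of centralspindlin, which bundles midzone microtubules for cytokinesis (chromosome 9), differed the other way. Its brightest probe set read 8.75, 8.71 and 8.71 in wild type and 8.58, 8.36 and 8.30 in transgenic testis. The wild-type arrays lay close together and all above the transgenic ones. The difference was -0.31 (SE 0.10, adjusted p = 0.461, 95% interval -0.53 to -0.09). A second probe set read 5.86, 5.97 and 6.16 in wild type and 5.82, 5.81 and 5.58 in transgenic arrays, again without overlap (difference -0.26, SE 0.11, adjusted p = 0.729). The third and dimmest read 4.49, 4.28 and 4.53 against 4.44, 4.29 and 4.72, with overlapping groups and a difference of 0.05 (adjusted p = 0.985).

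Kif20b, a plus-end motor of cytokinesis (chromosome 19), read below wild type with each of its 4 probe sets, from -0.21 to -0.04. The brightest gave 8.65, 8.83 and 8.60 in wild type and 8.52, 8.65 and 8.41 in transgenic arrays. These groups overlapped (difference -0.17, SE 0.10, adjusted p = 0.873). A dim probe set gave 3.61, 3.71 and 3.59 against 3.48, 3.48 and 3.32, without overlap (difference -0.21, SE 0.09, adjusted p = 0.739). That probe set is of a type that may read more than 1 transcript, and the filters on dim probe sets left it out. Kif4, an X-linked chromokinesin that binds chromosome arms, read 5.53, 5.69 and 5.63 in wild type and 5.97, 5.68 and 5.75 in transgenic testis (difference 0.18, SE 0.10, adjusted p = 0.843). Transgenic replicate 2 lay inside the wild-type range.

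The microtubule-depolymerizing kinesins read close to equal in the groups. Kif2b, which corrects kinetochore attachments (chromosome 11), read 11.92, 11.95 and 11.89 in wild type and 11.96, 12.06 and 11.79 in transgenic arrays (difference 0.02, SE 0.10, 95% interval -0.20 to 0.24). Kif2c, which does so at the centromere (chromosome 4), read 11.33, 11.27 and 11.27 against 11.24, 11.34 and 11.30 (difference 0.0033, SE 0.08, 95% interval -0.19 to 0.19). The arrays of both groups interleaved for both genes. Kif2a, of the same subfamily, had 5 probe sets with differences from -0.01 to 0.17. The remaining 7 genes of the class were Kif2a, Kif11 (pole separation), Kif14 and Kif15, Kif18a (chromosome alignment), Kif22 (a chromokinesin) and Kifc1 (a minus-end motor of spindle poles). Their brightest probe sets differed by -0.11 to 0.11, with a smallest adjusted p of 0.946 and no separated groups. The single Kifc1 probe set belongs to a probe type that may read more than 1 transcript, and Kifc5b is a related gene, so this reading may not be of Kifc1 alone.

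**Figure D3:**
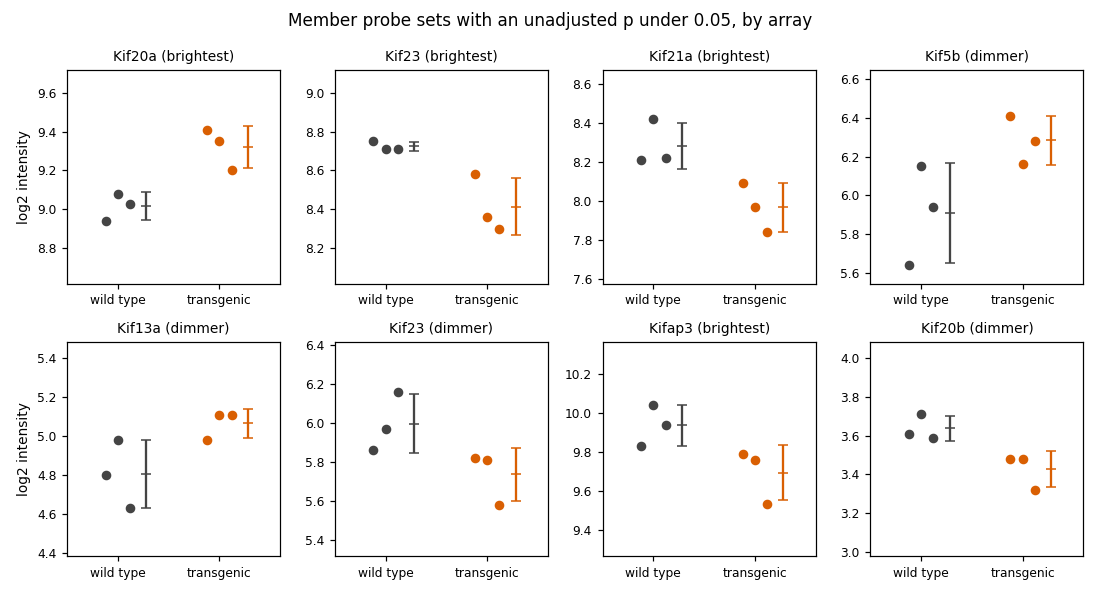
Log2 intensity on each array (points, replicates 1 to 3 from left to right) with mean and SD (bars, n = 3) for the 8 member probe sets with an unadjusted p under 0.05. The y axes of all panels span the same range of log2 units and start above 0. The transgenic arrays lie above the wild-type arrays for Kif20a and Kif5b and below them for Kif23, Kif21a, Kifap3 and Kif20b, while those of Kif13a meet at 4.98.

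Among the transport kinesins, 0 of 17 genes passed and 2, Kif21a and Kifap3, had an unadjusted p under 0.05, both lower (limma; 3.31% of all genes were lower at that threshold). The median difference was 0.02, with 10 genes above 0, 6 below and Kifc2 at 0.00. Kif21a, a motor that restrains microtubule growth (chromosome 15), read 8.21, 8.42 and 8.22 in wild type and 8.09, 7.97 and 7.84 in transgenic arrays with its brightest probe set. The groups did not overlap, and the difference was -0.32 (SE 0.10, adjusted p = 0.487, 95% interval -0.55 to -0.08). Its other probe sets did not repeat this: they read 6.45, 6.68 and 6.10 against 6.70, 6.49 and 6.64 (difference 0.20, adjusted p = 0.915), and 5.18, 5.10 and 5.13 against 5.13, 5.17 and 5.25 (difference 0.05, adjusted p = 0.978).

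Heterotrimeric kinesin-2, the motor of intraflagellar transport, consists of Kif3a, Kif3b and the non-motor subunit Kifap3. Kifap3 (chromosome 1) read 9.83, 10.04 and 9.94 in wild type and 9.79, 9.76 and 9.53 in transgenic arrays. The highest transgenic array lay just under the lowest wild-type one (difference -0.24, SE 0.11, adjusted p = 0.733). Its other probe set read 8.35, 8.71 and 8.42 against 8.53, 8.39 and 8.37, with overlap (difference -0.06, adjusted p = 0.978). The motor Kif3b (chromosome 2) read 9.73, 10 and 9.87 against 9.88, 9.81 and 9.77 (difference -0.05, SE 0.10, adjusted p = 0.980). Its 4 probe sets ran from -0.05 to 0.08, and the 4 of Kif3a from -0.05 to 0.18. Kifap3 read lower with both of its probe sets, but without wild type replicate 2 the dimmer one turned to 0.045.

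Kif5b, a heavy chain of conventional kinesin (chromosome 18), gave the widest spread between probe sets of any member. Its brightest read 7.55, 7.82 and 7.40 in wild type and 7.77, 7.67 and 7.93 in transgenic testis (difference 0.20, SE 0.13, adjusted p = 0.875). A dimmer one read 5.64, 6.15 and 5.94 against 6.41, 6.16 and 6.28, which just fails to overlap (difference 0.37, SE 0.14, adjusted p = 0.593). Another read 7.77, 7.47 and 7.56 against 7.44, 7.55 and 7.0, the other way (difference -0.27, SE 0.15, adjusted p = 0.838). The 6 probe sets of Kif5b thus spanned 0.64, 3 above 0 and 3 below. Kif5a and Kif5c, the other heavy chains, differed by 0.02 and 0.05 with their brightest probe sets.

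Kif13a, which carries vesicles from the Golgi and recycling endosomes (chromosome 13), read 6.38, 6.11 and 6.32 against 6.36, 6.20 and 6.26 with its brightest probe set (difference 0.0033, SE 0.10). A dimmer one read 4.80, 4.98 and 4.63 against 4.98, 5.11 and 5.11 (difference 0.26, SE 0.11, adjusted p = 0.714). The groups touch at 4.98. Kifc3, a minus-end motor (chromosome 8), read 8.45, 8.31 and 8.44 against 8.58, 8.50 and 8.58, without overlap (difference 0.15, SE 0.09, adjusted p = 0.847). The other 11 transport genes were Kif1a, Kif1b, Kif1c, Kif3a, Kif3c, Kif5a, Kif5c, Kif13b, Kif16b, Kif21b and Kifc2. Their brightest probe sets differed by -0.14 to 0.10, with a smallest adjusted p of 0.942 and no separated groups. Wild type replicate 2 gave the highest or the lowest of the 6 readings in 20 of the 38 kinesin genes (52.6%), near the 49.1% of all genes. By class these were 13 of 17 transport, 4 of 13 mitotic or meiotic, 2 of 5 cilium, centriole or axoneme and 1 of 3 other genes.

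Among the kinesins of cilium, centriole or axoneme, 0 of 5 genes passed and 0 had an unadjusted p under 0.05 (limma; 7.49% of all genes). Kif9, a motor of the central apparatus of the sperm tail (chromosome 9), read 11.18, 11.18 and 11.15 in wild type and 11.20, 11.20 and 11.14 in transgenic arrays. The groups were nearly equal, at a difference of 0.01 (SE 0.08, 95% interval -0.18 to 0.20). Kif27, a motile cilium gene (chromosome 13), read 9.82, 9.59 and 9.57 against 9.51, 9.51 and 9.63 (difference -0.11, SE 0.10, adjusted p = 0.941). Kif24, which acts at centrioles (chromosome 4), read 8.12, 8.01 and 7.88 against 7.91, 7.98 and 7.79 (difference -0.11, SE 0.10, adjusted p = 0.941). Kif6, of motile cilia, and Kif7, of Hedgehog signalling in the primary cilium, differed by 0.03 and 0.01.

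The 3 other genes, Kif12, Kif26a and Kif26b, had groups that overlapped, and none passed or had an unadjusted p under 0.05 (limma). Kif12 (chromosome 4) read 6.37, 6.11 and 6.59 against 6.34, 6.38 and 6.54 (difference 0.06, SE 0.13). Kif26a (chromosome 12) read 5.48, 5.41 and 5.53 against 5.77, 5.45 and 5.23, so that transgenic arrays gave both its highest and its lowest reading (difference 0.01, SE 0.13). Kif26b (chromosome 1) read 5.31, 5.29 and 5.31 against 5.26, 5.23 and 5.59 (difference 0.06, SE 0.11). Its wild-type arrays lay close together, inside the transgenic range.

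Probe sets of the same gene often disagreed in sign. Of the 38 genes, 12 had 1 probe set and 26 had several, up to 7 for Kif1b. In 20 of the 26 both signs occurred. The range of differences within a gene reached 0.5 in 3 genes, Kif5b (0.64), Kif21a (0.52) and Kif1c (0.51), whose probe sets were named here after their values were seen. Kif1c, a motor of Golgi and endosomal vesicles, ran from -0.14 with its brightest to 0.37 with a dimmer probe set (adjusted p = 0.767). In Kif2c, Kif18a, Kif20b, Kif22, Kifap3 and Kifc2 no probe set took the opposite sign. The other 2 probe sets with groups that did not overlap, also named after their values were seen, were dim ones of Kif5a (difference 0.16, adjusted p = 0.854) and Kif24 (difference -0.11, adjusted p = 0.924).

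**Figure D4:**
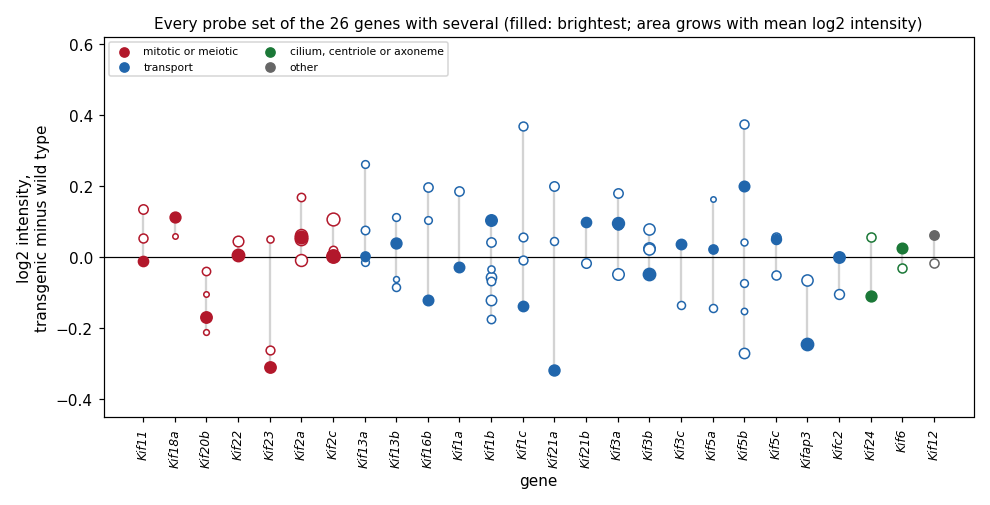
Difference in log2 intensity, transgenic minus wild type, for every probe set of the 26 kinesin genes with several (filled circles: brightest; area grows with mean log2 intensity). Grey lines join the probe sets of a gene, and 20 of the 26 lines cross 0, with the longest for Kif5b (0.64).

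Genes that work with kinesins were read from 5 lists. Of the 4 measured kinesins outside the 38, 0 passed and 0 had an unadjusted p under 0.05 (limma; 7.49% of all genes), and the smallest p was that of Cenpe, the kinetochore motor (difference -0.18, adjusted p = 0.915). Of 17 kinesin light chains and cargo adaptors, 0 passed and 1 had an unadjusted p under 0.05. That was Klc3, the light chain of elongating spermatids, which binds outer dense fibres of the sperm tail. It read 9.01, 9.02 and 8.99 in wild type and 8.59, 8.75 and 8.45 in transgenic arrays, without overlap (difference -0.41, SE 0.10, adjusted p = 0.207). The difference was larger than that of any kinesin, but did not pass.

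Of 21 spindle and cytokinesis partners, 0 passed and 2 had an unadjusted p under 0.05 (limma; 7.49% of all genes), with a median difference of 0.04. The smallest p was that of Nuf2, of the kinetochore complex that holds microtubules, which read 9.37, 9.71 and 9.63 against 10.04, 10.05 and 9.97 (difference 0.45, SE 0.11, adjusted p = 0.194). Of 25 genes of intraflagellar transport and the BBSome, which are cargo and adaptors of kinesin-2, 0 passed and 1 had an unadjusted p under 0.05 (limma; median difference -0.04). It was Ttc8, a BBSome subunit (difference 0.33, adjusted p = 0.685).

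Cytoplasmic dynein and dynactin, which pull in the opposite direction along microtubules, held the 1 gene of these lists that passed. Of 25 measured genes, 1 passed and was lower (0.617% of all genes passed), and 4 had an unadjusted p under 0.05 (limma; 7.49% of all genes). Differences ran from -0.997 to 0.55 with a median of 0.01, 15 above 0 and 10 below. Dctn3, the smallest subunit of dynactin's shoulder, read 9.63, 10.02 and 9.88 in wild type and 8.90, 8.84 and 8.80 in transgenic arrays. It fell 2.00-fold in intensity, a difference of -0.997 (SE 0.11, limma adjusted p = 0.00616), and has this probe set alone. The call was lost without transgenic replicate 2 (adjusted p = 0.0637) and without transgenic replicate 3 (adjusted p = 0.0609). Dctn6, another dynactin subunit and named after its values were seen, had the highest difference of the list. It read 8.88, 9.25 and 9.22 in wild type and 9.78, 9.60 and 9.63 in transgenic arrays, without overlap (difference 0.55, SE 0.12, limma adjusted p = 0.128), and passed without wild type replicate 2 (adjusted p = 0.0468).

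Markers of the cell types of the testis were read with the same fit. Over all genes 0.617% passed and 7.49% had an unadjusted p under 0.05, which are the shares to set beside the counts here. Of 12 spermatocyte markers, which are of the cells that hold meiotic spindles, 0 passed, 3 had an unadjusted p under 0.05 and 11 read lower (limma; 42.2% of all genes read lower), with a median difference of -0.15. The mean level of that list per array was 9.86 to 9.93 in wild type and 9.68 to 9.76 in transgenic testis. The part of spermatocyte RNA in the readings of Kif20a, Kif23 or Kif20b was not tested, nor was that of the Gapdh control difference given above. Median differences were 0.04 for 10 spermatogonia markers, 0.00 for 12 spermatid and 0.01 for 11 Sertoli cell markers, with 0 passing in each (limma) and 0, 1 and 0 at an unadjusted p under 0.05. Of 7 Leydig cell markers 6 read above 0 (median difference 0.11), 2 had an unadjusted p under 0.05 and 1, Hsd3b1, rose (difference 1.48, limma adjusted p = 0.00109). Of 7 epididymis markers 5 read above 0 and 2 below (median difference 0.07), and 2 had an unadjusted p under 0.05. The 1 that passed, Spink8, fell by 1.46 on the log2 scale (limma adjusted p = 0.0188), from 7.39, 6.54 and 6.55 to 5.34, 5.44 and 5.32. The call for Spink8 was lost without transgenic replicate 1, 2 or 3 (adjusted p = 0.127, 0.136 and 0.132), and that for Hsd3b1 held in every alternative run (adjusted p up to 0.0194). Without wild type replicate 2, Hsd17b3 of the Leydig cell list (difference 1.08, adjusted p = 0.0233) and Rnase10 of the epididymis list (difference -0.68, adjusted p = 0.0191) passed as well. No endothelial, macrophage and leukocyte, peritubular myoid, adipose or erythroid marker passed, with 3, 2, 1, 0 and 0 at an unadjusted p under 0.05 and median differences of 0.19, 0.09, -0.09, 0.20 and -0.01.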

How the data were processed

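The series compares testis RNA of 3 wild-type and 3 DREAM transgenic mice on 6 Affymetrix mouse expression arrays. The authors deposited 1 log2 intensity for each probe set, to 2 decimals, made with RMA and the affy package, per the submitters' processing notes (versions and genome build not given in the sources used here). RMA aligns the arrays' distributions, which hides any change shared by every transcript. Of 45101 probe sets, 64 controls were left out. By the platform annotation 34945 carry 1 gene, 932 several and 9160 none here, and symbols were updated through RefSeq (GRCm38.p6), which matched 34943. 1 probe set of several genes holds a kinesin and was not used.

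Differences between the groups come from limma 3.58.1 under R 4.3.3 (functions lmFit and eBayes, two-sided tests, Benjamini-Hochberg over 45037 probe sets, threshold 0.05). Values after ± and the error bars of the array plots are SDs over 3 arrays. Each SE is that of the difference, with its variance drawn by eBayes toward that of all probe sets. The fit was also run on simulated data with independent normal noise and no outlying array, and the outcome is not given here. The number of arrays limits the precision. The kinesin genes, their classes and the other lists were chosen with earlier results of these data known. The genes described array by array were those with an unadjusted p under 0.05, and in each class those with the smallest p (4 genes, or 2 in the small classes) and the 2 brightest. 5 further probe sets of Kif23, Kif21a, Kifap3 and Kif5b are given beside them, chosen after their values were seen. In the other lists, those past the threshold or else the 1 with the smallest p are named, at most 4 per list. Alternatives were filters on dim probe sets, other normalizations, variance models and array weights, a block for the replicate number, each array left out, probe sets of suffix x, s or a left out, averaging a gene's probe sets and an exact permutation test.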

Additional observations from a re-analysis of the deposited data

How the results depend on the processing

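The count of 0 kinesin probe sets past the threshold stayed at 0 in every setting tried except array weights, which gave 11 (4160 of all 45037 probe sets, 9.24%, against 200 in the main fit). The weights did not reach their convergence tolerance and put 19.1 on wild type replicate 3 against 0.237 to 0.812 on the other arrays. A looser threshold, an unadjusted p under 0.05, gave 8. With the replicate number as a block the count was 0 (smallest adjusted p 0.603). The deviations of same-numbered arrays had correlations of -0.32, -0.07 and -0.01, and those of the other pairs ran from -0.19 to 0.25. With 3 arrays per group these values cannot show whether the numbers pair the arrays. The block took the calls among all probe sets from 200 to 117. Without wild type replicate 3, or transgenic replicates 1, 2 and 3, those calls were 70, 71, 75 and 73, without wild type replicate 2 they were 429, and with trend and robust eBayes 306. Median centring took the split of all calls from 77 higher and 123 lower to 64 and 134.

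The median difference of the 5 cilium, centriole or axoneme genes went from 0.0067 to -0.05 without the lowest 60% of probe sets and to -0.11 without probe sets whose suffix marks possible shared transcripts, where fewer genes are left, and lay between -0.085 (without wild type replicate 2) and 0 leaving out single arrays. That of the 3 other genes went from 0.0567 to -0.0401 with array weights. Leaving out single arrays, it lay between -0.0217 (without wild type replicate 2) and 0.1033 (without transgenic replicate 1). That of the 13 mitotic or meiotic genes, 0.0033, went to -0.02 with median centring. Leaving out single arrays, it lay between -0.0067 (without wild type replicate 1) and 0.0317 (without wild type replicate 2). That of the 17 transport genes, 0.0233, went to -0.0003 with quantile normalization again and to 0 with median centring. It was 0.0383 without probe sets of suffix x, s or a. Leaving out single arrays, it lay between 0.0017 (without transgenic replicate 1) and 0.0367 (without wild type replicate 1). That of all 38 genes, 0.0083, went to -0.015 with median centring and to -0.0021 with quantile normalization again. Leaving out single arrays, it lay between 0.0033 and 0.0267. No median was tested.

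Of 353 values of the 27 probe sets described array by array, 313 kept their sign and call, 4 were exactly 0 (1 of Kif2c and 3 of Kif9), 8 passed newly, all with array weights, and 28 took the opposite sign, the cause not tested. With median centring Kif2b read -0.0067, Kif2c -0.02, Kif13a -0.02, Kif9 -0.0133 and Kif26a -0.0133. With quantile normalization again Kif2c read -0.0025, Kif13a -0.0239 and Kif26a -0.0233. With array weights Kif13a read -0.0443, Kif24 0.0065, Kif12 -0.16, Kif26a -0.0401, the dimmest of Kif23 -0.0433 and the dimmer of Kifap3 0.0095. Leaving out single arrays, Kif2b ran from -0.045 to 0.09, Kif2c from -0.02 to 0.03, Kif13a from -0.0767 to 0.0583, Kif3b from -0.115 to 0.02, Kif12 from -0.06 to 0.18, Kif26a from -0.1333 to 0.1367, Kif26b from -0.0583 to 0.12, the dimmest of Kif23 from -0.0683 to 0.1467 and the dimmer of Kifap3 from -0.135 to 0.045. Each of these had a main difference of at most 0.11 in size. The exact permutation test cannot go below 0.1 with 3 arrays against 3.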
